A study of Mus musculus with 6 samples.

Results

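The circadian clock genes examined here are 10 genes of the cell-autonomous clock: Per1, Per2, Per3, Cry1, Cry2, Arntl, Clock, Nr1d1, Nr1d2 and Dbp. They were taken by gene name from a table of read counts for 46983 genes. Each name matched 1 row, and all 10 were among the 14450 genes that passed the count filter. RNA came from C2C12 cells, a mouse myoblast line that fuses into myotubes when serum is lowered. Wild-type C2C12 cultures differentiated for 7 days received corticosterone, the main glucocorticoid of rodents, at 1e-07 M for 24 h (3 libraries), or the corresponding volume of ethanol, 1 µL/mL, for 24 h (3 libraries). The submitters describe the 3 libraries of a treatment as independent biological replicates. All cultures come from 1 cell line, and each treatment has a single harvest time, so levels are given without a phase or an amplitude.

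The clock is a feedback loop of transcription. CLOCK and ARNTL (BMAL1) bind E-box motifs and activate the Period and Cryptochrome genes, whose products return to the nucleus and repress them. The nuclear receptors encoded by Nr1d1 and Nr1d2 (REV-ERB alpha and beta) repress Arntl, and DBP acts on D-box motifs as an output of the loop. Skeletal muscle has a clock of its own, and glucocorticoids are known to reset clocks of peripheral tissues, with Per1 a classic direct target of the glucocorticoid receptor.

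Library totals ran from 23877583 to 29928653 counts. The smallest count of any member in a library was 292 (Dbp), and the largest counting error of a member in any library ran from 1.88% of its level for Clock to 5.85% for Dbp. All 8 myotube markers searched were detected, with summed levels, in counts scaled to library size (CPM), of 12391 to 14098 CPM under the corticosterone label and 9741 to 13426 CPM under the vehicle label. The 6 markers of undifferentiated or dividing myoblasts summed to 210.3 to 225 CPM under the corticosterone label and 245 to 251 CPM under the vehicle label. Of 4 fibroblast and adipocyte markers, Adipoq was at 0 and the sum was 22.8 to 33.9 CPM under the corticosterone label and 20.3 to 40.3 CPM under the vehicle label. Most of the sum was Pdgfra, at 19.7 to 39.5 CPM over all libraries, while Dpt reached at most 3.73 CPM and Plin1 at most 0.039 CPM.

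The labels of 2 libraries went against genes that glucocorticoids induce. Fkbp5, whose product binds the unliganded glucocorticoid receptor complex, measured 151, 36.9 and 135 CPM across the corticosterone-labelled libraries 1, 2 and 3, against 36.9, 177 and 35.4 CPM across the vehicle-labelled libraries 1, 2 and 3. Tsc22d3, a glucocorticoid-induced transcription regulator, was also low in the library labelled corticosterone replicate 2 and high in that labelled vehicle replicate 2. The clock genes were therefore read by label and also with the libraries labelled corticosterone 1, corticosterone 3 and vehicle 2, here called Fkbp5-high, beside those labelled corticosterone 2, vehicle 1 and vehicle 3, here called Fkbp5-low. The second grouping was made from these same libraries, Per1 being among the genes that led to it. It is given as a description, with no mean and no test.

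The promoters of Per1, Cry1 and Per3 are shown because their windows differ in the clock motifs they hold. Per1 was high in other libraries than Cry1 and Per3, which were both highest in those labelled corticosterone 2 and vehicle 3. A link between motifs and levels was not tested. Each sequence is the 250 bases before a RefSeq start (GRCm38.p6), written 5′ to 3′ along the gene's strand. Capitals mark matches, on either strand, to the E-box CACGTG, the D-box TTATGTAA or the core of the ROR element AGGTCA, through which the REV-ERBs and the ROR receptors act.
Per1 (chr11:69098699-69098948, plus strand): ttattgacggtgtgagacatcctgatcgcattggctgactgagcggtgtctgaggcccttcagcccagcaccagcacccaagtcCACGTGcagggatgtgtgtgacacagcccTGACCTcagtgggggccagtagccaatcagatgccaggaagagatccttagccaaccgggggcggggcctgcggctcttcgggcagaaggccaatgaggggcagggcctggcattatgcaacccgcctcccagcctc
Cry1 (chr10:85185055-85185304, minus strand): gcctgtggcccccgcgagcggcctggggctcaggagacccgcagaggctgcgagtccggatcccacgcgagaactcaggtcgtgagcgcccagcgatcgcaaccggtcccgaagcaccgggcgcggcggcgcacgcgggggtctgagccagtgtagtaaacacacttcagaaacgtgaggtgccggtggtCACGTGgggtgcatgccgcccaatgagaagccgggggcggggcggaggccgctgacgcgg
Per3 (chr4:151044666-151044915, minus strand): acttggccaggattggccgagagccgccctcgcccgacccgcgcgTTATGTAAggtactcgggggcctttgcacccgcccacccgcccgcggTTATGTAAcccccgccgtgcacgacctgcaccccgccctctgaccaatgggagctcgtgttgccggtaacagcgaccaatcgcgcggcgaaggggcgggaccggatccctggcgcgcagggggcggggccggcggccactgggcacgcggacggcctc

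The Per1 window shown held 1 E-box, starting 166 bases before the start, and 1 ROR core on the opposite strand. A second RefSeq window of Per1, chr11:69099902-69100151, held none of these motifs. The Cry1 window held 1 E-box, starting 60 bases before the start. The Per3 window held 2 D-boxes, starting 205 and 158 bases before the start, and no E-box. The windows of Nr1d1 and Arntl held none of these motifs. RefSeq gave 13 windows for 9 members, all but Per2. Of these members, 2 had an E-box, in 2 of the 13 windows, where 6.02% of 32851 mouse promoter windows of the same length hold it. A D-box was found for 1 member, in 1 window, and is held by 0.819% of windows. An AGGTCA core was found for 3 members, in 3 windows, and is held by 14.0%. TGTTCT, the core hexamer of the glucocorticoid response element, is held by 16.1% of windows and had no match in the 13 windows. The D-box and E-box matches do not overlap any other motif searched.

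All 10 clock genes were expressed in the myotubes. Levels between genes were compared as CPM per kilobase of exon, averaged over the 6 libraries. The REV-ERB genes were the most abundant members, Nr1d1 at 20.3 ± 4.41 and Nr1d2 at 18.3 ± 2.03 CPM per kilobase (SD, n = 6 libraries). Per1 followed at 10.5 ± 4.83, Clock at 8.34 ± 0.36 and Cry1 at 7.03 ± 1.07 CPM per kilobase. The lower group held Dbp at 4.70 ± 0.76, Per2 at 3.47 ± 0.58, Arntl at 3.24 ± 0.97, Cry2 at 3.10 ± 0.22 and Per3 at 2.73 ± 0.67 CPM per kilobase. In this order the ranges over libraries of neighbouring genes overlapped, except between Cry1 and Dbp. Per1 had the widest spread of all members, its highest library standing 2.81-fold above its lowest, and Clock had the narrowest, at 1.13-fold.

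By the treatment labels, no clock gene passed the test. In edgeR's quasi-likelihood test 0 of 10 members passed, as did 0% of the 14450 genes tested, with adjusted p from 0.408 to 0.975 for the members. At an unadjusted p under 0.05 there was 1 member, Nr1d1, where 11.8% of all genes tested lay under it. DESeq2 also called 0 members, where it called 0.955% of all genes tested, and limma-voom called 0 members and 0 genes. Of the log2 differences, 8 were positive and 2 negative, where 7343 of the 14450 genes tested were positive. Their median was 0.16, beside 0.004 over all genes tested. Among the 8 was Cry1, at 0.02, whose sign flipped with upper-quartile scaling and with no scaling. The CPM of 0 members was without overlap between the labels, where 16.6% of all genes tested had none. Without both libraries numbered 2, which were left out because of their levels of glucocorticoid-induced genes, 5 members were without overlap, where 37.1% of 14403 genes tested were. The lower sum of the markers of undifferentiated or dividing myoblasts in the libraries labelled corticosterone lay beside these differences. Its part in them was not tested. Of these markers Top2a and Ccnb1 were lower without overlap between the labels, while Pax7, Myf5, Mki67 and Cdk1 overlapped. Pax7 ran from 50.6 to 66.0 CPM under the corticosterone label and from 49.2 to 63.5 CPM under the vehicle label. In such bulk libraries fewer cells of a type and less RNA per cell cannot be told apart.

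**Figure D1:**
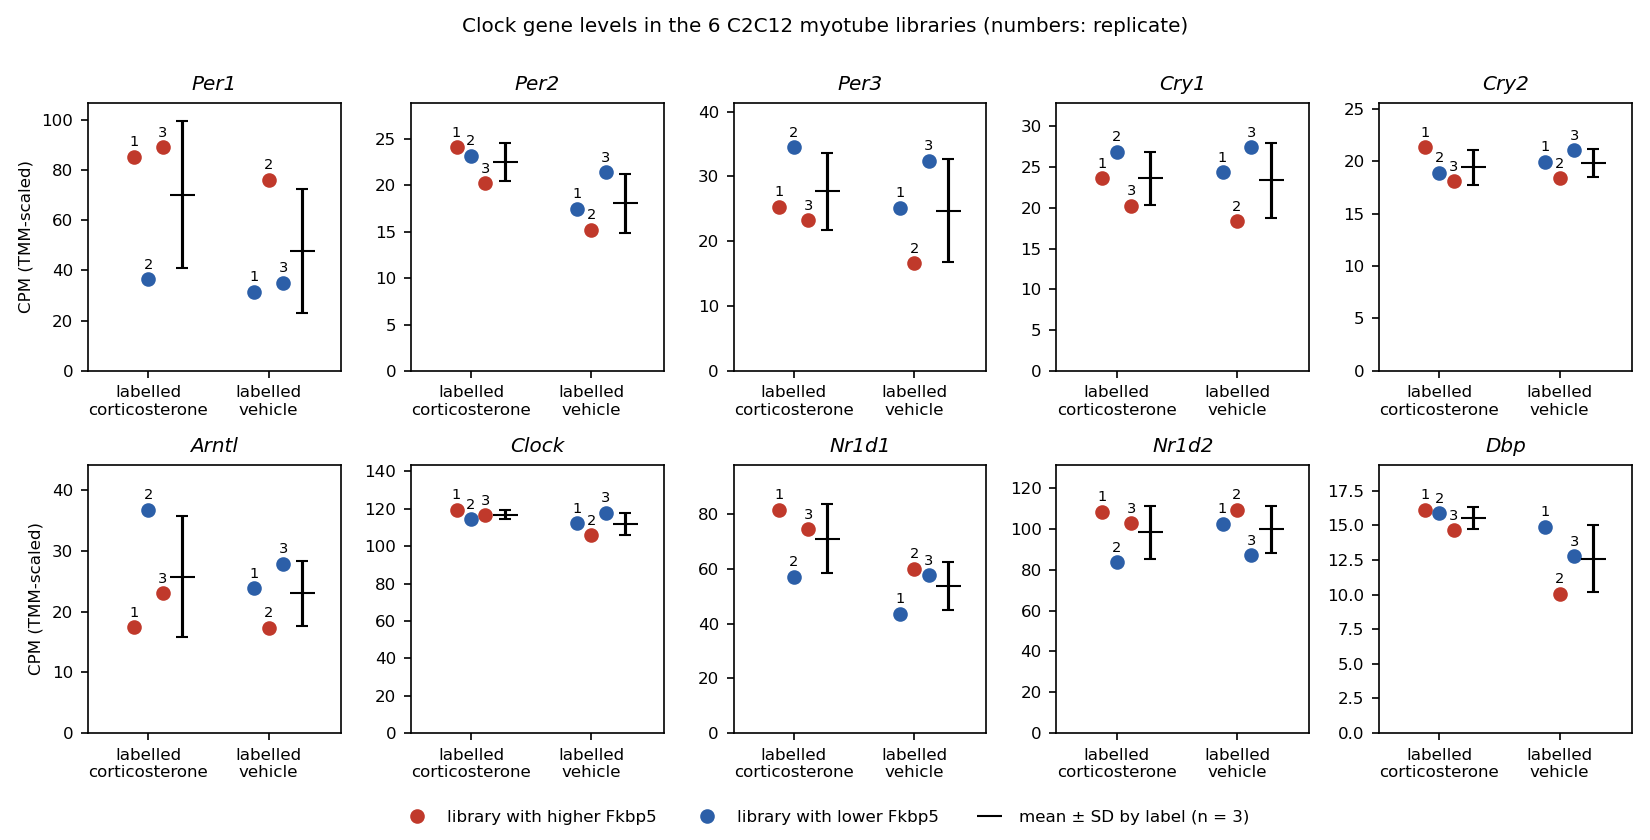
TMM-scaled CPM (linear axis from 0) of the 10 clock genes in each library, with the libraries labelled corticosterone on the left and those labelled vehicle on the right of each panel. Points are libraries with their replicate number, red for Fkbp5-high and blue for Fkbp5-low, and bars are the mean ± SD by label (n = 3). Per1 stands between 76.0 and 88.9 CPM in the 3 red libraries and between 31.6 and 36.4 CPM in the 3 blue ones, whatever their label.

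Among the Period genes, whose products form the repressor complex, Per1 varied most. The gene positions given are those of GENCODE on GRCm38. Per1 (ENSMUSG00000020893, chr11:69095217-69109960) measured 85.2, 36.4 and 88.9 CPM across the corticosterone-labelled libraries 1, 2 and 3, against 31.6, 76.0 and 35.1 CPM across the vehicle-labelled libraries 1, 2 and 3. The labelled groups overlapped because the library labelled corticosterone 2 was low and that labelled vehicle 2 was high. The log2 difference by label was 0.56 ± 0.42 (SE, edgeR adjusted p = 0.61). Without both libraries numbered 2 it was 1.38. Per1 was among the genes for which those libraries were left out, so this value is a description, with no error and no test.

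Per2 and Per3 did not follow Per1. Per2 (ENSMUSG00000055866, chr1:91415982-91459324) measured 24.1, 23.2 and 20.3 CPM across the corticosterone-labelled libraries 1, 2 and 3, against 17.5, 15.2 and 21.5 CPM across the vehicle-labelled libraries 1, 2 and 3. The groups overlapped in that the library labelled vehicle 3 stood above that labelled corticosterone 3, and the log2 difference was 0.32 ± 0.14 (edgeR adjusted p = 0.43). Per2 was lowest in the libraries labelled vehicle 1 and 2, which also had the lowest sums of the myotube markers, 9741 and 10934 CPM. Of these markers Myog, Myh3, Ckm, Acta1, Tnnt3 and Atp2a1 were lowest in both those libraries. Des was lowest in that labelled corticosterone 2, at 2228 CPM, and Mef2c was highest in that labelled vehicle 2, at 563 CPM. The part of these marker levels in the result was not tested. Per3 (ENSMUSG00000028957, chr4:151003652-151044665) measured 25.4, 34.5 and 23.3 CPM across the corticosterone-labelled libraries 1, 2 and 3, against 25.2, 16.6 and 32.4 CPM across the vehicle-labelled libraries 1, 2 and 3. It was highest where Per1 was low, in the libraries labelled corticosterone 2 and vehicle 3, and lowest in that labelled vehicle 2. Its log2 difference by label, 0.17 ± 0.25 (edgeR adjusted p = 0.803), was -0.24 without both libraries numbered 2.

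Of the Cryptochromes, which repress CLOCK and ARNTL directly, Cry1 moved between libraries and Cry2 hardly did. Cry1 (ENSMUSG00000020038, chr10:85131700-85185064) measured 23.6, 26.9 and 20.3 CPM across the corticosterone-labelled libraries 1, 2 and 3, against 24.4, 18.3 and 27.4 CPM across the vehicle-labelled libraries 1, 2 and 3. The levels under the corticosterone label lay within the range of those under the vehicle label, with a log2 difference of 0.02 ± 0.17 (edgeR adjusted p = 0.975) whose sign flipped with upper-quartile scaling and with no scaling. Cry2 (ENSMUSG00000068742, chr2:92403646-92434043) measured 21.3, 18.9 and 18.1 CPM across the corticosterone-labelled libraries 1, 2 and 3, against 19.9, 18.4 and 21.04 CPM across the vehicle-labelled libraries 1, 2 and 3. Its whole range over the 6 libraries was 1.18-fold.

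The activators behaved unlike each other. Arntl (ENSMUSG00000055116, chr7:113207465-113314126) measured 17.4, 36.8 and 23.0 CPM across the corticosterone-labelled libraries 1, 2 and 3, against 23.8, 17.3 and 27.9 CPM across the vehicle-labelled libraries 1, 2 and 3. Its highest level was in the library labelled corticosterone 2 and its lowest levels in those labelled corticosterone 1 and vehicle 2. The log2 difference by label was 0.16 ± 0.28 (edgeR adjusted p = 0.833), and it was -0.36 without both libraries numbered 2. Clock (ENSMUSG00000029238, chr5:76209868-76304792), the partner of Arntl, was steady, at 120, 115 and 117 CPM across the corticosterone-labelled libraries 1, 2 and 3, against 112, 106 and 118 CPM across the vehicle-labelled libraries 1, 2 and 3. Its log2 difference was 0.06 ± 0.07 (edgeR adjusted p = 0.728).

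Nr1d1 (ENSMUSG00000020889, chr11:98767932-98775333), the REV-ERB alpha gene, had the smallest p among the members. It measured 81.6, 57.1 and 74.4 CPM across the corticosterone-labelled libraries 1, 2 and 3, against 43.6, 59.9 and 57.7 CPM across the vehicle-labelled libraries 1, 2 and 3. Only the library labelled corticosterone 2 lay within the range of the other label, under 2 of the libraries labelled vehicle. The log2 difference was 0.40 ± 0.16 (edgeR adjusted p = 0.408). The 3′ end of Nr1d1 lies across that of Thra, a thyroid hormone receptor gene on the opposite strand. Their exons share 263 bases, 8.55% of the exon length of Nr1d1, and reads there cannot be told apart without strand. Thra itself measured 47.1, 50.0 and 60.5 CPM across the corticosterone-labelled libraries 1, 2 and 3, against 50.2, 52.1 and 40.3 CPM across the vehicle-labelled libraries 1, 2 and 3. Both genes were lower in the library labelled corticosterone 2 than in that labelled corticosterone 3, but Thra was also low in that labelled corticosterone 1, where Nr1d1 was highest.

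Nr1d2 (ENSMUSG00000021775, chr14:18204054-18239127), the REV-ERB beta gene, measured 108.5, 83.6 and 103 CPM across the corticosterone-labelled libraries 1, 2 and 3, against 103, 109.5 and 87.2 CPM across the vehicle-labelled libraries 1, 2 and 3. Its log2 difference by label was -0.02 ± 0.12 (edgeR adjusted p = 0.954), the low libraries being those labelled corticosterone 2 and vehicle 3. Dbp (ENSMUSG00000059824, chr7:45705088-45710203), the output factor, measured 16.1, 15.9 and 14.7 CPM across the corticosterone-labelled libraries 1, 2 and 3, against 14.9, 10.1 and 12.8 CPM across the vehicle-labelled libraries 1, 2 and 3. The groups overlapped in that the library labelled vehicle 1 stood above that labelled corticosterone 3, and the log2 difference was 0.31 ± 0.15 (edgeR adjusted p = 0.461). The exons of Dbp share 539 bases, 18.0% of its exon length, with Sphk2 on the opposite strand. The strand setting is not known, so reads there may have been left uncounted or misassigned.

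**Figure D2:**
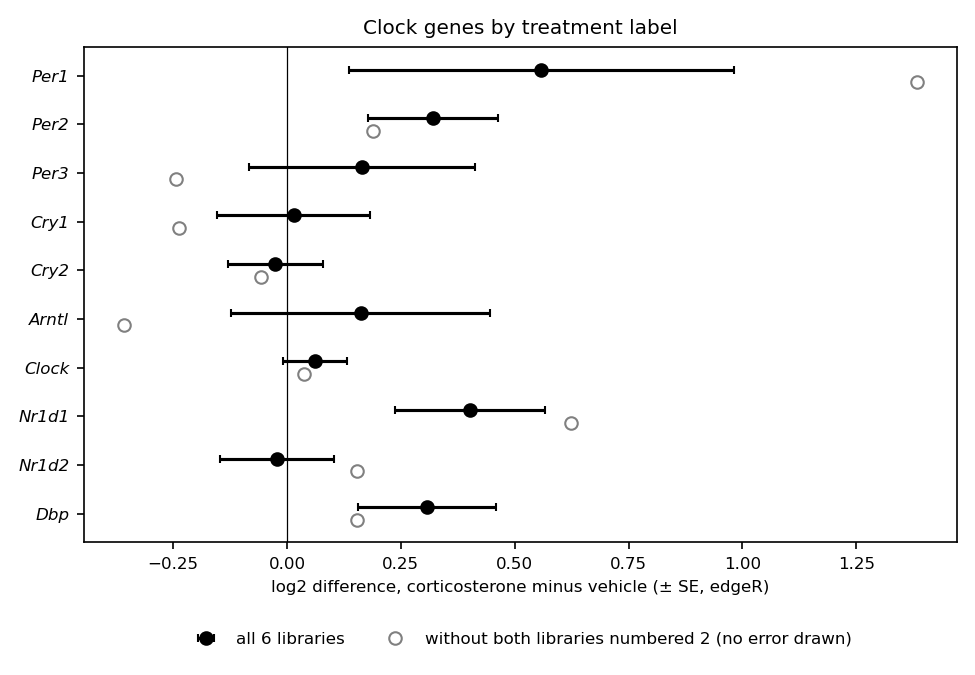
Log2 difference, corticosterone minus vehicle, of each clock gene by label, for all 6 libraries (filled, with the SE from edgeR) and without both libraries numbered 2 (open, with no error drawn). Per1 lies at 0.56 with all libraries and at 1.38 without those 2, and Per3, Cry1 and Arntl lie above 0 with all libraries and below 0 without them, the sign of Cry1 with all libraries also flipping with upper-quartile scaling and with no scaling.

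Read as Fkbp5-high beside Fkbp5-low libraries, the members fell into 3 sets. Per1, Nr1d1 and Nr1d2 were higher in each Fkbp5-high library than in any Fkbp5-low one, Cry1 and Arntl were lower, and Per2, Per3, Cry2, Clock and Dbp overlapped. This makes 5 of 10 members without overlap, 3 higher and 2 lower, where 9.63% of all genes tested had no overlap, 4.89% higher and 4.74% lower. Per1 helped to define the grouping, so its place among the 5 follows from the choice of libraries. The lowest Fkbp5-high level of Per1, 76.0 CPM, was 2.09-fold above its highest Fkbp5-low level, 36.4 CPM. For the other 4 genes the gap was small, and that of Nr1d2 was lost with RLE, upper-quartile and no scaling. It was 1.04-fold for Nr1d1, 1.002-fold for Nr1d2, 1.03-fold for Cry1 and 1.04-fold for Arntl, beside counting errors of up to 2.99, 2.19, 4.40 and 4.48% of their levels. Per3 missed this count narrowly, joining it with upper-quartile and with no scaling, at 25.4 CPM in its highest Fkbp5-high library and 25.2 CPM in its lowest Fkbp5-low one.

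**Figure D3:**
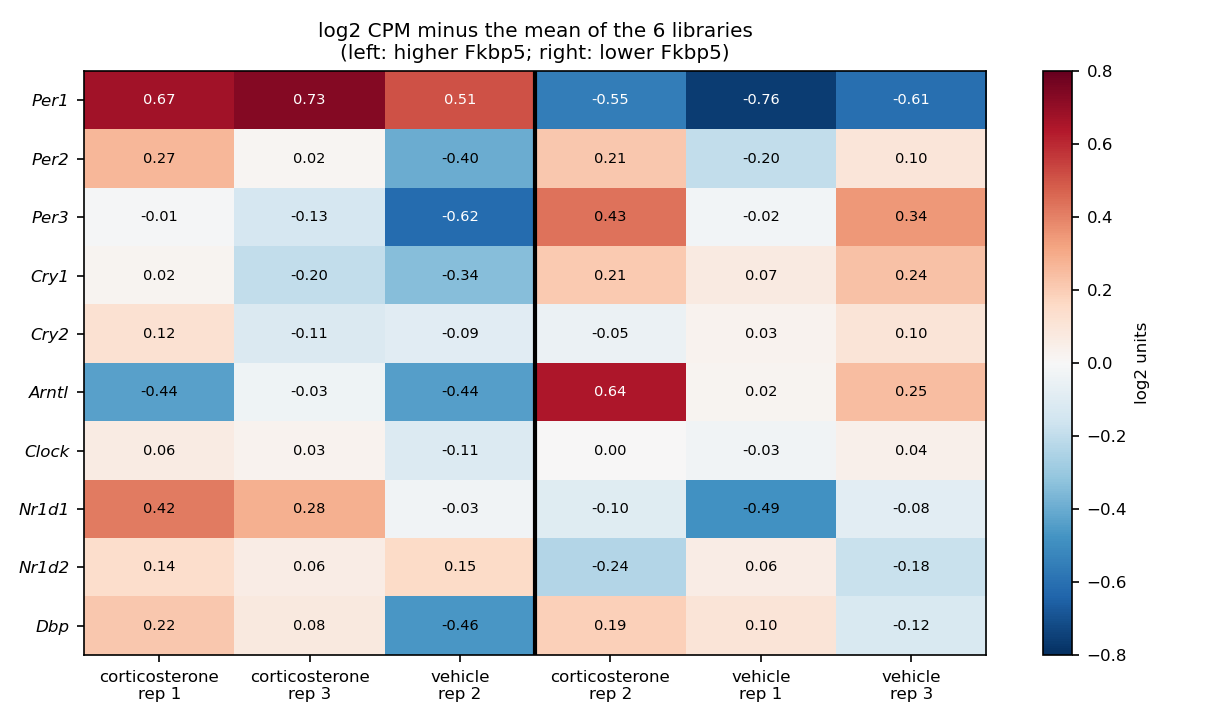
Log2 CPM of each clock gene minus its mean over the 6 libraries, with the 3 Fkbp5-high libraries left of the line and the 3 Fkbp5-low libraries right of it. Per1 runs from 0.51 to 0.73 on the left and from -0.76 to -0.55 on the right, while Arntl runs from -0.44 to -0.03 on the left and from 0.02 to 0.64 on the right.

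Ratios of counts within a library do not depend on how libraries are scaled, and gene length cancels when they are compared between libraries. The ratio of Per1 to Arntl was 4.90, 3.87 and 4.38 in the Fkbp5-high libraries labelled corticosterone 1, corticosterone 3 and vehicle 2, and 0.99, 1.32 and 1.26 in the Fkbp5-low libraries labelled corticosterone 2, vehicle 1 and vehicle 3. For Nr1d1, whose product represses Arntl, the ratio to Arntl was 4.69, 3.24 and 3.46 in the Fkbp5-high libraries and 1.55, 1.83 and 2.07 in the Fkbp5-low ones. Within the Period family the ratio of Per1 to Per3 was 3.36, 3.82 and 4.57 in the Fkbp5-high libraries and 1.06, 1.25 and 1.08 in the Fkbp5-low ones. The ratio of Cry1 to Cry2 was 1.11, 1.12 and 0.998 in the Fkbp5-high libraries and 1.42, 1.22 and 1.30 in the Fkbp5-low ones. The ratio of Per1 to Per2 was 3.54, 4.39 and 4.99 in the Fkbp5-high libraries and 1.57, 1.81 and 1.64 in the Fkbp5-low ones, and that of Clock to Arntl was 6.88, 5.08 and 6.11 in the Fkbp5-high libraries and 3.11, 4.71 and 4.23 in the Fkbp5-low ones. The ratio of Nr1d1 to Thra, the gene that overlaps its exons, was 1.73, 1.23 and 1.15 in the Fkbp5-high libraries and 1.14, 0.868 and 1.43 in the Fkbp5-low ones. Of these 7 ratios, 6 were without overlap between the sets and that of Nr1d1 to Thra was not. Each holds at least 1 gene whose own level was without overlap. Per1 helped to define the sets, so the place of its ratios among the 6 follows from the choice of libraries. No share over the ratios of all genes was computed, so this count is a description only.

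Over all genes tested other than the members, the 6 libraries formed 3 pairs of nearest neighbours. The root mean square difference in log2 CPM was 0.36 between the libraries labelled corticosterone 1 and vehicle 3, 0.36 between those labelled vehicle 2 and vehicle 1, and 0.40 between those labelled corticosterone 3 and corticosterone 2, and it was at least 0.446 for every other pairing. Each pair held 1 Fkbp5-high and 1 Fkbp5-low library. The labels do not say what the libraries of a pair share. The members were therefore also compared within each pair, Fkbp5-high over Fkbp5-low, with a 95% interval that covers counting error only.

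Within the pairs the change of Per1 was nearly constant. Its ratio was 2.43 (2.24 to 2.63) for corticosterone 1 over vehicle 3, 2.44 (2.27 to 2.63) for corticosterone 3 over corticosterone 2, and 2.41 (2.22 to 2.61) for vehicle 2 over vehicle 1. Nr1d1 gave 1.42, 1.30 and 1.37 in the same order of pairs, and Nr1d2 gave 1.245, 1.23 and 1.07. Thra also stood higher in the Fkbp5-high library of all 3 pairs, as Nr1d1 did, with log2 ratios of 0.22, 0.27 and 0.05. Arntl gave 0.62, 0.62 and 0.73, Per3 gave 0.78, 0.67 and 0.66, and Cry1 gave 0.86, 0.75 and 0.75. For these 6 genes all 3 intervals lay on 1 side of 1, above it for 3 members and below it for 3, where 9.71% of all genes tested did so, 5.24% above and 4.47% below. Their ratios kept these directions in all 3 pairs with RLE, upper-quartile and no scaling, and the direction of Per1 follows from the choice of libraries. That share includes genes with fewer counts, whose intervals are wider. By direction alone, without the intervals, 6 of 10 members moved the same way in all 3 pairs, where 40.5% of all genes tested did.

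The other 4 members had no common direction within the pairs, except Cry2 with no scaling. Cry2 gave 1.01, 0.96 and 0.92, and all 3 of its intervals included 1. With no scaling its ratios were 0.996, 0.966 and 0.913, all below 1. Clock gave 1.01, 1.02 and 0.94. Per2 gave 1.12, 0.87 and 0.87, and Dbp gave 1.26, 0.92 and 0.68, so that both were higher in the Fkbp5-high library of the first pair and lower in that of the last.

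**Figure D4:**
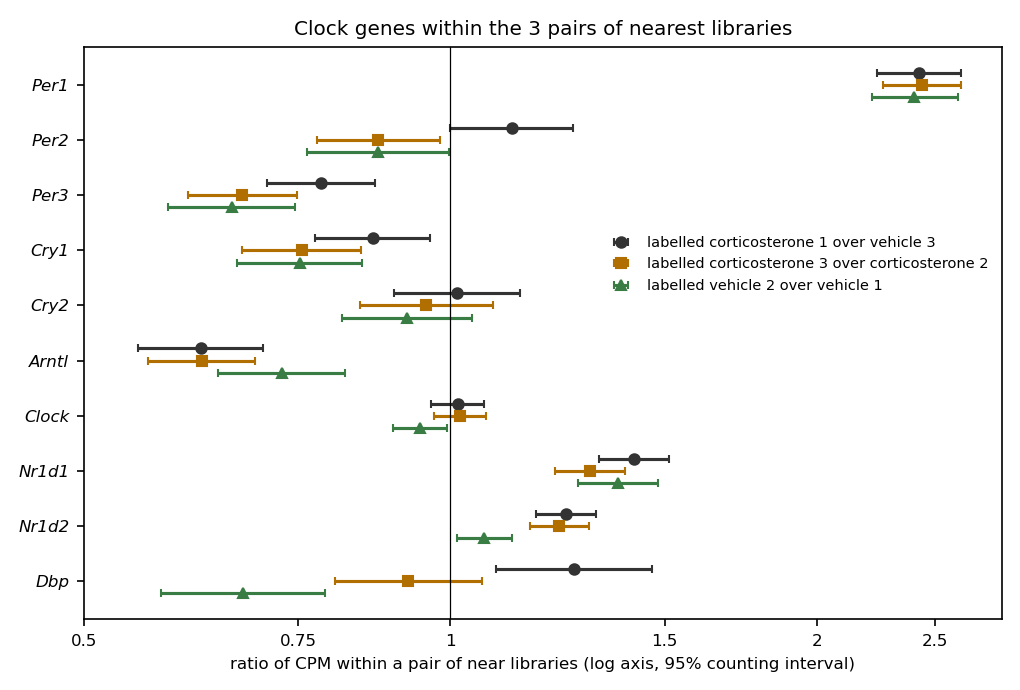
Ratio of CPM (log axis) of each clock gene within the 3 pairs of nearest libraries, the Fkbp5-high library over the Fkbp5-low one, with 95% counting intervals. Per1 lies at 2.41 to 2.44 in all 3 pairs, Arntl at 0.62 to 0.73, and Dbp at 0.68 to 1.26.

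Of 26 further genes of the clock pathway, 25 passed the count filter and Hlf, a D-box factor, did not, with at most 7 counts in a library. None of the 25 passed the edgeR test by label, as did 0% of all genes tested, and 2 had an unadjusted p under 0.05, where 11.8% of all genes tested lay under it. DESeq2 called 0 of the 25, where it called 0.955% of all genes tested, and limma-voom called 0. The log2 differences were positive for 10 and negative for 15, with a median of -0.05, where 7343 of 14450 genes tested were positive. Without overlap between the labels were 5 of 25, where 16.6% of all genes tested had no overlap in either direction. All 5 were lower in the libraries labelled corticosterone, where 8.19% of all genes tested were lower without overlap. Of these 5, 4 are described. Rorb encodes a ROR receptor, one of a family that competes with the REV-ERBs, and was scarce. It averaged 1.28 ± 0.52 CPM under the corticosterone label and 2.70 ± 0.57 CPM under the vehicle label (SD, n = 3 each). Its log2 difference was -1.07 ± 0.33 (edgeR adjusted p = 0.364).

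Nfil3, Timeless and Btrc differed less. Nfil3, a repressor at D-boxes, averaged 30.1 ± 1.01 CPM under the corticosterone label and 33.1 ± 0.92 CPM under the vehicle label (edgeR adjusted p = 0.483). Timeless, which acts at replication forks, averaged 6.58 ± 0.66 CPM under the corticosterone label and 7.85 ± 0.21 CPM under the vehicle label (edgeR adjusted p = 0.481). Btrc, a subunit of the ubiquitin ligase that degrades PER proteins, averaged 45.4 ± 1.61 CPM under the corticosterone label and 47.6 ± 0.32 CPM under the vehicle label (edgeR adjusted p = 0.675).

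The 8 most abundant genes of this list by CPM per kilobase overlapped between the labels, with log2 differences from -0.09 for Fbxw11 to 0.18 for Tef. Of these, 7 are named here: Nono, an RNA-binding partner of PER proteins, Bhlhe40, a repressor at E-boxes, the D-box activator Tef, the casein kinases Csnk1d and Csnk1e that phosphorylate PER proteins, the ubiquitin ligase subunit Fbxw11, and the corepressor Hdac3. Bhlhe40 measured 292, 258 and 258 CPM across the corticosterone-labelled libraries 1, 2 and 3, against 252, 251 and 317 CPM across the vehicle-labelled libraries 1, 2 and 3. Tef averaged 304 ± 28.1 CPM under the corticosterone label and 269 ± 14.3 CPM under the vehicle label (edgeR adjusted p = 0.484). In the second reading 2 of the 25 were without overlap, Usp2 higher and Csnk1d lower in the Fkbp5-high libraries, where 9.63% of all genes tested had no overlap. The gap was 1.027-fold for Usp2 and 1.001-fold for Csnk1d, beside counting errors of up to 3.62 and 1.63% of their levels.

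**Figure D5:**
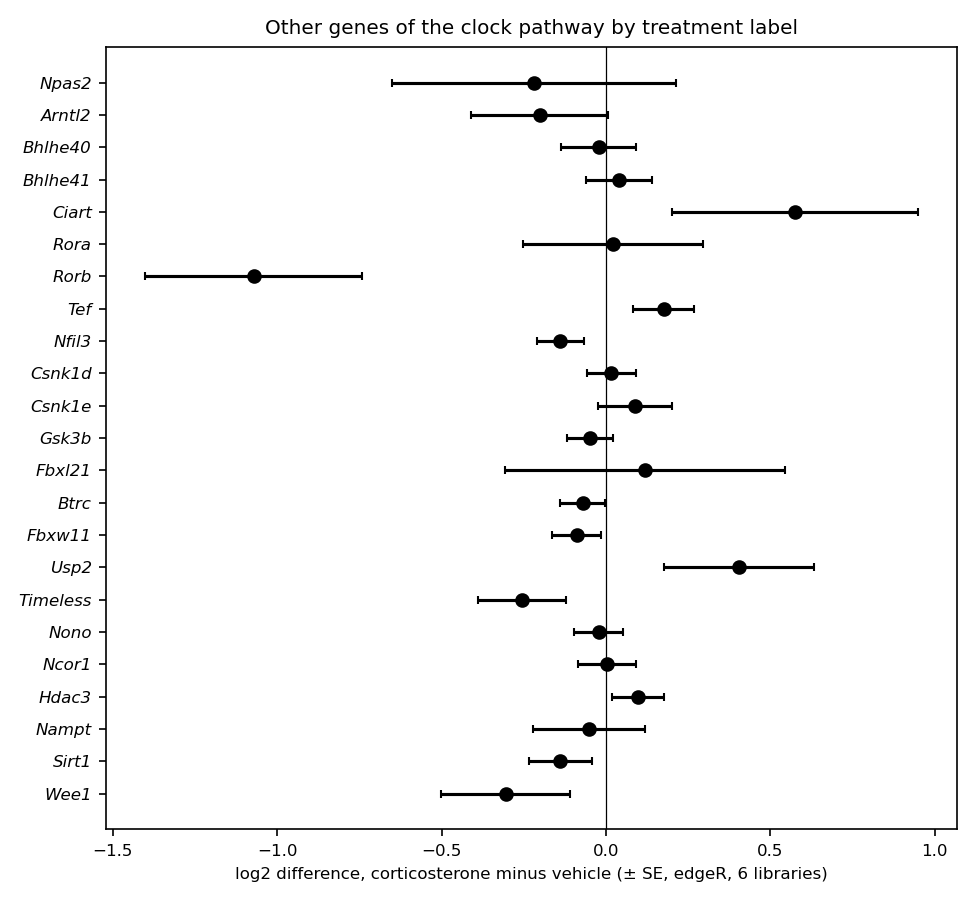
Log2 difference, corticosterone minus vehicle, of 23 of the 25 other clock-pathway genes by label, with the SE from edgeR. Rorb lies lowest of those shown, at -1.07, and none of the 25 passed the test.

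The genes whose levels ran most like Per1 were found by the root mean square difference of centred log2 CPM over the 6 libraries, among 10639 genes with a mean of at least 5 CPM. Of the 5 nearest, 4 are named: Dtna (alpha-dystrobrevin) and Adam12 (a membrane metalloprotease), each at 0.17 log2 units, then Ggta1 (a galactosyltransferase) at 0.18 and Rasl12 (a small GTPase) at 0.21. Fkbp5, the gene used to name the sets, was not among these 5. The measure also counts the size of a change. Within the near pairs, Fkbp5-high over Fkbp5-low, Fkbp5 went the same way as Per1 but further. Its log2 ratios were 2.09, 1.87 and 2.26, beside 1.28, 1.28 and 1.26 for Per1, in the order of pairs given above. The nearest to Dbp were Pfkfb4, which encodes a regulator of glycolysis, at 0.085 log2 units, and Wdfy2, Crnde, Lypd6 and Gm13092, at 0.10 to 0.11. No other clock member was among the 5 nearest genes of Per1 or of Dbp.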

How the data were processed

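Poly(A) RNA was sequenced after a NEBNext Ultra library preparation, per the labels' protocols. The authors deposited raw read counts per gene, 1 column per library. HISAT2 2.0.5, HTSeq 0.6.1, DESeq2 1.24.0 and mm10 are named in the submitters' processing notes; no source used here gives the annotation, the strand setting or a filter. Counts were used as deposited. Corticosterone was compared with vehicle by label with edgeR 4.0.16 in R 4.3.3 (quasi-likelihood F-test, TMM scaling, filterByExpr, two-sided, Benjamini-Hochberg adjustment over 14450 genes, threshold 0.05). CPM are TMM-scaled and p-values measure the spread between 3 libraries per label. The script was tested on simulated data. Exon lengths and overlaps came from GENCODE M21 (GRCm38), promoters from RefSeq (GRCm38.p6). Counting intervals are exact binomial (Clopper-Pearson) and cover counting error only.

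The members and lists were chosen with earlier results of these data known. The named genes are the 10 members, the listed genes without overlap between labels, the 8 most abundant listed genes per kilobase, and the 5 genes nearest to Per1 and to Dbp. Of these, 3 genes are not reported here. Alternatives were DESeq2 1.42.0, limma-voom (limma 3.58.1), RLE, upper-quartile and no scaling, no count filter, at least 1 CPM in 3 libraries, replicate number as a block, each library left out, and both libraries numbered 2 left out. Alternatives for the second reading of the libraries were added once its values were known. Every count column was matched to a sample.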

Additional observations from a re-analysis of the deposited data

How the results depend on the processing

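The count of clock members called by label stayed at 0 under all 15 alternatives, as did that of the other clock-pathway genes. Over all genes, edgeR called 0, DESeq2 called 138, and leaving out 1 library gave 0 to 29 calls: 29 without corticosterone replicate 1 and 11 without vehicle replicate 3. Without both libraries numbered 2 there were 3 calls, Fkbp5 and Tsc22d3 among them. Those libraries were left out because of their levels of glucocorticoid-induced genes, so calls of such genes follow from that choice and are no support. In that setting 5 members were without overlap between the labels, beside 0 with all libraries and 0 to 2 with 1 library left out. Of 14403 genes tested, 37.1% were without overlap when both were left out. With the replicate block the counts of calls were 0 members and 0 genes. Same-numbered libraries did not deviate together (correlations of -0.15, -0.27 and -0.32 across genes), which gave no sign of pairing by number. The deviations were taken from the mean of each label. Both libraries numbered 2 went against their labels in glucocorticoid-induced genes, so this check cannot settle the pairing. Of 150 values of single members under these alternatives, 134 kept their direction and 16 changed sign, all without a call. The sign changed for Cry1 with upper-quartile scaling (-0.0031) and with no scaling (-0.033). Without both libraries numbered 2 the log2 differences were -0.24 for Per3, -0.24 for Cry1, -0.36 for Arntl and 0.15 for Nr1d2. With 1 library left out they ran from -0.056 to 0.40 for Per3, -0.13 to 0.14 for Cry1, -0.098 to 0.024 for Cry2, -0.19 to 0.38 for Arntl and -0.12 to 0.083 for Nr1d2, and from 0.33 to 1.07 for Per1, whose highest value came without vehicle replicate 2 and lowest without vehicle replicate 1. Those of the other members ran from 0.21 without vehicle replicate 2 to 0.45 without vehicle replicate 3 for Per2, 0.022 to 0.091 without the same libraries for Clock, 0.27 without vehicle replicate 1 to 0.54 without corticosterone replicate 2 for Nr1d1, and 0.17 without vehicle replicate 2 to 0.44 without vehicle replicate 1 for Dbp. The cause was not tested. In the second reading the 5 members without overlap became 4 with RLE scaling, which lost Nr1d2, and were 5 with upper-quartile and with no scaling, which lost Nr1d2 and added Per3, and 4 to 7 with 1 library left out. Per1, Nr1d1, Cry1 and Arntl were without overlap under each of these. Leaving out a library only removes values, so apart from rescaling it cannot make separate ranges overlap. Those settings therefore do not check the separation, and that of Per1 follows from the choice of libraries.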

Other observations

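Some of the other clock-pathway genes, chosen after their values were seen, differed between libraries. Usp2, a ubiquitin protease with strongly rhythmic expression in many mouse tissues, stood at 64.1, 52.8 and 43.1 CPM in the Fkbp5-high libraries labelled corticosterone 1, corticosterone 3 and vehicle 2, and at 35.2, 29.8 and 42.0 CPM in the Fkbp5-low libraries labelled corticosterone 2, vehicle 1 and vehicle 3. By label its log2 difference was 0.40 ± 0.23 (edgeR adjusted p = 0.508). Ciart, a repressor of CLOCK and ARNTL, measured 4.40, 4.01 and 4.12 CPM across the corticosterone-labelled libraries 1, 2 and 3, against 1.76, 1.93 and 4.76 CPM across the vehicle-labelled libraries 1, 2 and 3. It was low in the near pair labelled vehicle 1 and vehicle 2, at the higher and the lower level of Fkbp5 alike. Nampt, the enzyme of NAD synthesis that the clock drives, stood at 40.4, 47.6 and 48.3 CPM in the Fkbp5-high libraries, in the order given for Usp2, and at 33.3, 44.1 and 33.2 CPM in the Fkbp5-low ones. Its sets overlapped, and its log2 difference by label was -0.05 ± 0.17 (edgeR adjusted p = 0.916).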
